A study of Homo sapiens with 30 samples.

Results

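The genes described here are 9 of the 19775 human genes named by a single symbol on the array, and together they carry out V(D)J recombination, the cutting and rejoining of gene segments that builds the antigen receptors of B and T lymphocytes. RAG1 and RAG2 form the recombinase that cuts at recombination signals, DNTT (TdT) adds untemplated nucleotides at the ends, and PRKDC (the catalytic subunit of DNA-PK), XRCC5 (Ku80), XRCC6 (Ku70), DCLRE1C (Artemis), LIG4 and XRCC4 open the hairpins and rejoin the ends. The members were chosen by symbol. The array carried 25 probe sets for them, and for each gene the probe set that was brightest on average over the 30 arrays was used, with the others as a check. All 9 were measured and none was removed by a filter on low values.

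In lymphocyte development the end-joining factors are made in nearly all cells, whereas RAG1, RAG2 and DNTT are largely restricted to immature lymphocytes. RAG transcription comes in waves that accompany the rearrangement of successive receptor loci, and the enzyme is held back in dividing cells because RAG2 protein is broken down as cells enter S phase. MEF2C is a transcription factor of early lymphoid and B-lineage cells, and Notch signalling directs progenitors towards the T lineage.

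All samples were made from LOUCY, a human cell line of early T-cell precursor acute lymphoblastic leukaemia that expresses its own MEF2C through a rearrangement near the gene and carries SET-NUP214, without NOTCH1 or FBXW7 mutations. Bulk lines were made by lentiviral transduction and flow sorting. The MEF2C and ICN line carried inducible MEF2C together with ICN (intracellular NOTCH1, the active form of the receptor), the ICN line carried ICN, and the MEF2C line carried MEF2C, a codon-optimized human cDNA without the β transactivation domain, followed by BFP. Each line was profiled with and without doxycycline (dox), at 0.5 µg/mL per the study's methods. The MEF2C line was profiled on OP9-DL1 (mouse bone marrow stroma displaying the Notch ligand Delta-like 1), on OP9-GFP (the same stroma without the ligand) and in medium alone, whereas both lines with ICN were profiled in medium. The induction lasted 24 h for the arrays of the MEF2C line, and its length was not given in the sources used here for the lines with ICN. The study's methods give SCF, FLT3L and IL-7 for human cocultures, without saying whether those on these arrays received them. Effects of the stroma and of any such cytokines cannot be told apart. Each of the 10 conditions had 3 arrays. Neither the labels nor the methods state whether the 3 were grown separately, so a p-value reflects only how far these arrays scatter, and that scatter may be technical. No array was of a line without an inducible construct, so an effect of dox itself and of the induced factor cannot be told apart.

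Values are RMA values on the log2 scale, so a difference of 1 is a doubling of signal. A probe set is compared only with itself, since signal also depends on the probes. A call is an adjusted p under 0.05 by limma, with Benjamini-Hochberg adjustment over 54613 probe sets. Replicate arrays correlated at 0.990 to 0.998 and array medians lay between 4.76 and 4.84. The 3 MEF2C probe sets read here went different ways. The paper counts more MEF2C probe sets than these 3. It states that all but 1 lie outside the cloned cDNA and read endogenous MEF2C, whereas that 1 also covers the construct. It also reports that induced MEF2C represses the endogenous gene. Which of the probe sets named here, if any, covers the construct was not tested. Probe set 207968_s_at was higher with dox on OP9-DL1 (8.55 ± 0.16 with, 7.93 ± 0.05 without), on OP9-GFP (8.69 ± 0.03 with, 7.47 ± 0.50 without) and in medium (8.21 ± 0.14 with, 7.68 ± 0.05 without; SD, n = 3 each). It was also higher in the MEF2C and ICN line, at 8.25 ± 0.08 with dox and 7.58 ± 0.05 without, but lower in the ICN line, at 7.30 ± 0.16 with dox and 7.78 ± 0.12 without. The other MEF2C probe sets, 209199_s_at (the brightest) and 209200_at, were lower with dox over the 3 cultures (-1.06, adjusted p = 3.1e-10, and -1.07, adjusted p = 1e-08), in the MEF2C and ICN line (-2.21 and -2.28) and in the ICN line (-0.26 and -0.32). NOTCH1 (223508_at) was higher with dox in the MEF2C and ICN line (0.81, adjusted p = 0.00035) and in the ICN line (0.56, adjusted p = 0.013), whereas the brighter NOTCH1 probe set (218902_at) differed by 0.07 (adjusted p = 0.66) and 0.01 (adjusted p = 0.96). Markers of cell type are given as ranges over the 30 arrays, each probe set on its own scale and without detection calls. Of 9 T-cell markers, CD3D read 11.07 to 13.11 and CD2 read 3.08 to 3.85. Of 7 progenitor markers, CD34 read 4.97 to 5.72 and KIT 2.29 to 3.23, and HHEX, LYL1 and LMO2 read 10.02 to 11.01, 8.16 to 10.30 and 7.39 to 9.07. Of 8 B-cell markers, the pre-B receptor genes IGLL1 and VPREB1 read 11.62 to 13.16 and 9.91 to 11.98, and PAX5, CD22, MS4A1 and BLNK read 4.85 to 5.26, 4.85 to 5.50, 3.45 to 4.63 and 1.99 to 2.74.

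RAG1 and RAG2 lie next to each other on chromosome 11 (GRCh38.p14), RAG1 at chr11:36510353-36579762 and RAG2 at chr11:36590996-36598236, and LIG4 lies at chr13:108207442-108218349. The promoters of these genes are shown because they were the members that passed the test when MEF2C was induced. Each window runs 5′ to 3′ from 250 bases before to 50 bases after a RefSeq transcription start and is in lower case, with the E box (CANNTG, read alike on both strands) in capitals. The RAG1 window is chr11:36510103-36510402 on the plus strand and overlaps the annotated span of TRAF6, the RAG2 window is chr11:36598187-36598486 on the minus strand, and the LIG4 window is chr13:108218300-108218599 on the minus strand.
RAG1: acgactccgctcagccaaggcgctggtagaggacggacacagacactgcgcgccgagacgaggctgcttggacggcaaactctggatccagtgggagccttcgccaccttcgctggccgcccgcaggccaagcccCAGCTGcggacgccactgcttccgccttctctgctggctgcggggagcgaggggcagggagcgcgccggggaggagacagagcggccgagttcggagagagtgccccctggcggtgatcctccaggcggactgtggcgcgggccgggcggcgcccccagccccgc
RAG2: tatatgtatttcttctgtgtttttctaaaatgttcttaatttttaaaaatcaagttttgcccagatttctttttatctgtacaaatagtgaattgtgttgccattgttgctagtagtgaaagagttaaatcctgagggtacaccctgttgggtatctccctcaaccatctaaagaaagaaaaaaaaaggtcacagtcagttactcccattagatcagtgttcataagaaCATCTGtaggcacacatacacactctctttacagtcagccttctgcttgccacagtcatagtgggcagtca
LIG4: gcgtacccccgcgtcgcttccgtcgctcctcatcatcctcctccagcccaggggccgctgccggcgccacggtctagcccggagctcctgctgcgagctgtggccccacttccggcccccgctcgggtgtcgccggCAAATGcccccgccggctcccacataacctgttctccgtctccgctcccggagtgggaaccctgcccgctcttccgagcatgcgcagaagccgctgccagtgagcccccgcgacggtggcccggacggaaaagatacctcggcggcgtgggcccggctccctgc
The RAG1 and LIG4 windows each had a GC content of 72.3%, against 36.7% for RAG2 and a median of 58.7% over 35116 RefSeq windows. Each held 1 E box, which begins at -115 in RAG1, -21 in RAG2 and -114 in LIG4 relative to the start, and an E box was present in 68.7% of all windows. The RAG2 window also held 1 GATA site, at -178 on the opposite strand, against 25% of all windows with one. The LIG4 window held 1 CSL site (TGGGAA, which contains the GGAA core, searched on both strands), against 24% of all windows. The MEF2 site was in 2.99% of all windows and the FOXO core GTAAACA in 3.42%, and neither was found in these 3 windows. The GGAA core, in 95.5% of all windows, had 1 match in RAG1, 0 in RAG2 and 5 in LIG4. A match describes the letters only, only the first listed of 5 LIG4 windows is shown, and no other RAG1 start was examined.

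RAG1, RAG2 and LIG4 were each higher with MEF2C induction in all 3 cultures, and the other 6 members passed in none. Over the 9 arrays with dox and the 9 without, 3 of 9 members passed as higher and 0 as lower, against 3.4% of all genes higher and 3.79% lower, and a further member, DCLRE1C, reached an unadjusted p under 0.05. The median difference of the members was 0.08, beside -0.01 over all genes. On OP9-DL1 the counts were 3 higher and 0 lower, against 2.57% and 3.33% of all genes, with a median of 0.11 beside 0.01. On OP9-GFP they were 3 higher and 0 lower, against 3.03% and 4.58%, with a median of 0.00 beside -0.03. In medium they were 3 higher and 0 lower, against 5.03% and 3.58%, with a median of 0.15 beside -0.01.

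RAG1, the recombinase subunit that holds the catalytic site, was higher on every array with dox than on every array without dox of the same line. On OP9-DL1 it read 6.10, 6.19 and 6.16 with dox, against 4.85, 4.88 and 4.92 without. On OP9-GFP it read 6.85, 6.78 and 6.70 with dox, against 4.82, 4.89 and 4.20 without. In medium it read 6.44, 6.51 and 6.64 with dox, against 4.06, 4.45 and 4.37 without. The groups were separate in each culture, and the array without dox that stood lowest on OP9-GFP was replicate 3. The difference was 1.27 on OP9-DL1 (95% interval 0.99 to 1.54, adjusted p = 2.6e-07), which is 2.41-fold. It was 2.14 on OP9-GFP (1.87 to 2.42, adjusted p = 1.9e-11), which is 4.42-fold, and 2.24 in medium (1.96 to 2.51, adjusted p = 5.5e-12), which is 4.72-fold.

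RAG2, the partner that reads the histone mark of active genes and is needed for cutting, was higher as well. On OP9-DL1 it read 5.65, 5.49 and 5.33 with dox, against 4.37, 4.76 and 4.32 without. On OP9-GFP it read 5.81, 5.86 and 5.68 with dox, against 4.75, 4.98 and 4.72 without. In medium it read 5.59, 5.63 and 5.54 with dox, against 4.63, 4.96 and 4.69 without. No array with dox overlapped the arrays without, in any of the cultures. The differences were 1.00 on OP9-DL1 (adjusted p = 2.1e-05), 0.96 on OP9-GFP (adjusted p = 3.3e-05) and 0.83 in medium (adjusted p = 0.00025), or 2.00-fold, 1.95-fold and 1.77-fold. RAG2 has a single probe set, and its span shares 3735 bases with IFTAP, whose own probe set differed by 0.04 over the 3 cultures (adjusted p = 0.9).

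**Figure D1:**
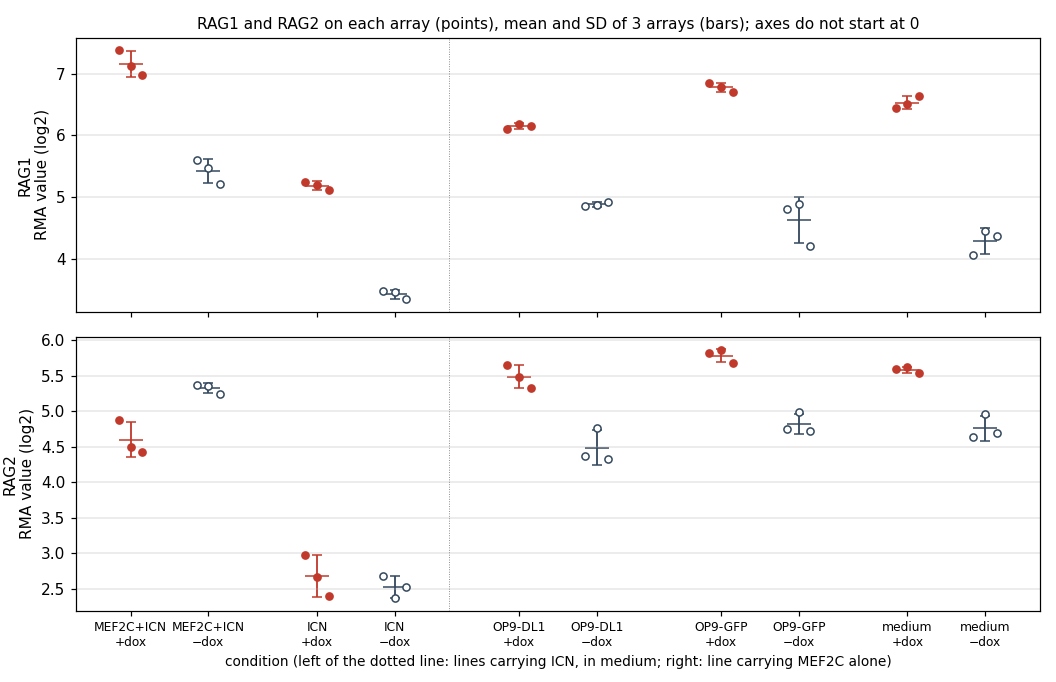
RAG1 (top) and RAG2 (bottom) as RMA values (log2) on each of 30 arrays by condition, filled points with dox and open points without, with the mean and SD of 3 arrays. RAG1 with dox lies above RAG1 without dox in every line and culture, whereas RAG2 with dox lies below in the MEF2C and ICN line (4.42 to 4.88 against 5.24 to 5.37) and overlaps in the ICN line.

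LIG4, the ligase that seals the joined ends with XRCC4, was higher in each culture, most of all in medium. On OP9-DL1 it read 8.85, 8.90 and 8.78 with dox, against 8.25, 8.46 and 8.28 without. On OP9-GFP it read 8.82, 8.84 and 8.75 with dox, against 8.29, 8.40 and 8.18 without. In medium it read 9.93, 9.86 and 10.01 with dox, against 8.62, 8.75 and 8.48 without. The groups were separate within each culture, and the arrays with dox in medium stood above all other arrays of the series. The difference was 0.52 on OP9-DL1 (0.34 to 0.69, adjusted p = 0.00017) and 0.51 on OP9-GFP (0.34 to 0.69, adjusted p = 0.00015), each 1.43-fold, and 1.31 in medium (1.14 to 1.48, adjusted p = 1.8e-11), which is 2.48-fold. By the study's criteria, which also ask for a log2 difference over 0.6, LIG4 passed in medium and not on OP9-DL1 or OP9-GFP. Pooled over the 3 cultures it was 0.78 ± 0.18 (SE, adjusted p = 0.0084), and there the groups overlapped. The pooled call was lost with the arrays numbered 1, 2 or 3 left out (adjusted p = 0.1, 0.058 and 0.076), and with culture as a covariate its adjusted p was 1.3e-05.

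The remaining end-joining genes and DNTT did not pass in any MEF2C comparison. DCLRE1C, the nuclease that opens hairpin ends, stood above its own culture's mean without dox on 8 of 9 arrays with dox. Its differences were 0.16 on OP9-DL1, 0.26 on OP9-GFP and 0.22 in medium, with adjusted p of 0.7, 0.27 and 0.4, and 0.21 over the 3 cultures (0.02 to 0.41, adjusted p = 0.26). PRKDC, the kinase that binds DNA ends with Ku, differed by 0.08 over the 3 cultures, within an interval of -0.02 to 0.19. XRCC5 and XRCC6, which form the Ku ring on DNA ends, had intervals of -0.08 to 0.10 and -0.07 to 0.08. XRCC4, the scaffold of LIG4, had an interval of -0.16 to 0.10 and stood above its culture's mean without dox on 2 of 9 arrays. DNTT had an interval of -0.18 to 0.09 and read 3.38 to 4.04 on all 30 arrays, a dim range in which a difference would be shrunk, and the files hold no detection calls.

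**Figure D2:**
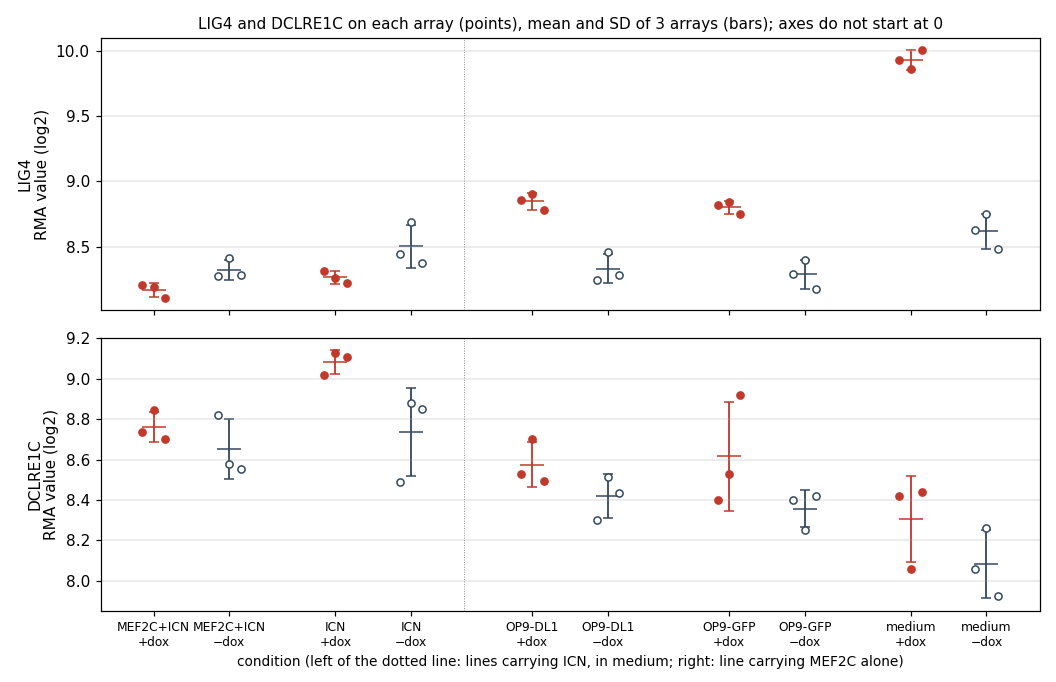
LIG4 (top) and DCLRE1C (bottom) as RMA values (log2) on each of 30 arrays by condition, filled points with dox and open points without, with the mean and SD of 3 arrays. LIG4 in medium with MEF2C induced (9.86 to 10.01) stands apart from all other conditions, which lie between 8.11 and 8.90, and DCLRE1C spans 7.93 to 9.13.

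Whether the response to MEF2C depended on the culture was tested as a difference of differences. On OP9-DL1 minus OP9-GFP, 0 of 9 members passed in either direction (limma), against 0.0556% of all genes higher and 0.0759% lower, with 1 member under an unadjusted p of 0.05, a median of 0.01 and an all-gene median of 0.03. That member was RAG1, whose response was smaller on OP9-DL1 by 0.88 (interval -1.27 to -0.49, adjusted p = 0.058), and it passed without replicate 1 or 2 on OP9-GFP without dox (adjusted p = 0.042 and 0.023). The interval for RAG2 was -0.37 to 0.45 and for LIG4 -0.24 to 0.24. On OP9-GFP minus medium, 0 members passed as higher and 1 as lower, against 0.101% and 0.389%, with a median of -0.02 beside -0.02. It was LIG4, whose response on OP9-GFP was smaller by 0.80 (interval -1.04 to -0.56, adjusted p = 0.00066). RAG1 (-0.48 to 0.30) and RAG2 (-0.27 to 0.55) had intervals that span 0.

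The cultures were also compared with each other. Without dox, OP9-DL1 against OP9-GFP called 0 of 9 members in either direction (limma), against 1.02% of all genes higher and 0.612% lower, with 1 under an unadjusted p of 0.05 and a median of 0.01 beside -0.02. With dox, 0 were higher and 1 was lower, against 0.92% and 0.48%, with a median of -0.01 beside 0.01. That was RAG1, lower by 0.63 on OP9-DL1 (adjusted p = 0.013), a call that was lost when replicate 1 or 2 on OP9-GFP with dox or replicate 1 on OP9-DL1 with dox was left out (adjusted p = 0.076, 0.057 and 0.062).

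Against medium, OP9-GFP without dox called 0 members higher and 1 lower, against 10.8% and 11.5% of all genes, with 5 of 9 under an unadjusted p of 0.05 and a median of 0.13 beside -0.01. With dim probe sets left out, RAG2 and DNTT among them, 4 members passed. LIG4 was lower by 0.33 on OP9-GFP (adjusted p = 0.0056, or 0.14 when only those 6 arrays were fitted). RAG1 was 4.64 ± 0.37 on OP9-GFP and 4.29 ± 0.21 in medium (SD, n = 3 each), a difference of 0.34 (adjusted p = 0.081), which was 0.56 (adjusted p = 0.0011) without replicate 3 on OP9-GFP. With dox, 0 members were higher and 1 was lower, against 7.64% and 13%, with a median of 0.02 beside -0.02. Again it was LIG4, lower by 1.13 on OP9-GFP (adjusted p = 3.5e-10). DCLRE1C was uncalled by its brightest probe set in both, at 0.27 without dox and 0.31 with dox, although 3 and 1 of its 5 probe sets passed as higher. The 14 stromal markers averaged 5.52 to 5.71 per array on OP9-GFP and 5.51 to 5.62 in medium without dox. Of these, 3 were called higher and 3 lower on OP9-GFP. The stroma is mouse and the array is designed for human transcripts, so these values cannot show how much stromal RNA was present.

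With ICN induced, the recombinase genes and LIG4 did not move together. In the MEF2C and ICN line, 1 of 9 members passed as higher and 1 as lower with dox, against 5.84% and 10.9% of all genes, with a median of 0.03 beside 0.02. In the ICN line, 1 passed as higher and 0 as lower, against 6.44% and 9.42%, with a median of 0.03 beside -0.03.

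RAG1 was the member that was higher in both lines. It read 7.38, 7.12 and 6.97 with dox in the MEF2C and ICN line, against 5.60, 5.48 and 5.21 without. In the ICN line it read 5.25, 5.20 and 5.11 with dox, against 3.48, 3.46 and 3.35 without. The groups did not overlap, and RAG1 was thus called higher in all 5 comparisons that added dox. The difference was 1.73 with MEF2C and ICN (1.45 to 2.00, adjusted p = 1.7e-10, 3.31-fold) and 1.76 with ICN (1.48 to 2.03, adjusted p = 2.4e-10, 3.38-fold).

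RAG2 was not higher in either of these lines. It read 4.88, 4.50 and 4.42 with dox in the MEF2C and ICN line, against 5.37, 5.35 and 5.24 without, so that every array with dox was below every array without. The difference was -0.72 (-1.01 to -0.44, adjusted p = 0.00046), that is 1.65-fold lower. In the ICN line it read 2.98, 2.66 and 2.39 with dox, against 2.68, 2.36 and 2.52 without. These groups overlap, and the difference was 0.15 (-0.14 to 0.44, adjusted p = 0.59), at a level near the dim end of the array where differences are shrunk.

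LIG4 was not higher with ICN. It read 8.21, 8.19 and 8.11 with dox in the MEF2C and ICN line, against 8.28, 8.41 and 8.28 without. In the ICN line it read 8.32, 8.26 and 8.22 with dox, against 8.44, 8.69 and 8.37 without. By this probe set the arrays with dox lay below those without in both lines. Neither difference passed, at -0.15 (adjusted p = 0.28) and -0.24 (adjusted p = 0.065). The second LIG4 probe set, 206235_at, was at 0.12 with MEF2C and ICN and at -0.16 with ICN, and passed in neither. DCLRE1C read 9.02, 9.13 and 9.11 with ICN induced, against 8.49, 8.88 and 8.85 without, a difference of 0.34 that missed the threshold (adjusted p = 0.078) although the groups did not overlap. XRCC5 was at -0.15 with MEF2C and ICN (adjusted p = 0.068), and the intervals of XRCC6 in both lines lay between -0.17 and 0.14.

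**Figure D3:**
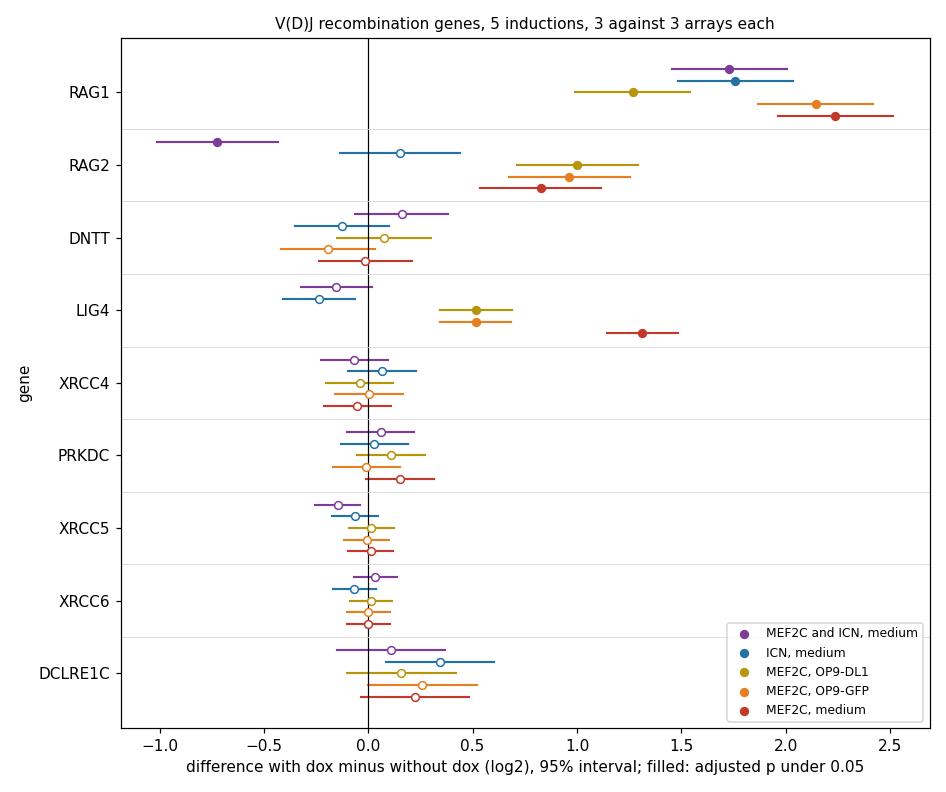
Difference with dox minus without dox (log2, x axis) for each of 9 genes (y axis) in 5 inductions of 3 arrays against 3, with 95% intervals, and filled points where the adjusted p was under 0.05. RAG1 is filled in all 5, RAG2 is at -0.72 with MEF2C and ICN and between 0.83 and 1.00 in the MEF2C line, and LIG4 is filled in the 3 MEF2C rows, at 0.51 to 1.31.

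The contrast between lines was tested directly, with the caution that line and any batch of its arrays cannot be told apart. For MEF2C and ICN minus ICN, 0 members had a greater and 1 a smaller difference, against 4.06% and 6.08% of all genes, with a median of -0.03 beside 0.04. That member was RAG2, at -0.88 (adjusted p = 0.0044), a value that rests on the ICN line's RAG2 response near the dim end, where a change would be shrunk. For RAG1 the 2 effects differed by -0.03 (adjusted p = 0.96). For MEF2C and ICN minus MEF2C in medium, 0 were greater and 2 smaller, against 2.94% and 7.53%, with a median of -0.11 beside 0.02. RAG2 differed by -1.55 (adjusted p = 2.8e-06) and LIG4 by -1.47 (adjusted p = 9e-10). RAG1 differed by -0.51 (adjusted p = 0.11).

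The lines also differed before any induction, all in medium without dox. The MEF2C and ICN line had 3 members higher and 1 lower than the MEF2C line, against 12% and 11.9% of all genes, with a median of 0.11 beside -0.04. RAG1 (1.14, adjusted p = 4.6e-07), RAG2 (0.56, adjusted p = 0.0043) and DCLRE1C (0.57, adjusted p = 0.0015) were higher and LIG4 was lower (-0.30, adjusted p = 0.011). The LIG4 call was lost without replicate 1 of the MEF2C and ICN line or replicate 2 of the MEF2C line (adjusted p = 0.052 and 0.078) or when only the 6 arrays were fitted (0.071). The ICN line had 1 member higher and 2 lower than the MEF2C line, against 12.9% and 12.3%, with a median of -0.08 beside -0.04. RAG2 was lower by 2.24 (adjusted p = 6.9e-12), a difference that its position near the dim end in the ICN line (2.36 to 2.68) would shrink. RAG1 was lower by 0.86 (adjusted p = 2.7e-05), and DCLRE1C was higher by 0.66 (adjusted p = 0.00036). Of the 5 DCLRE1C probe sets, 3 passed as higher in the MEF2C and ICN line and 2 in the ICN line.

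Ranked over the 10 conditions, RAG1 averaged 3.43 ± 0.07 in the ICN line without dox, followed without dox by the MEF2C line in medium (4.29 ± 0.21), on OP9-GFP stroma (4.64 ± 0.37) and with OP9-DL1 (4.88 ± 0.03). It went on at 5.19 ± 0.07 in the ICN line with dox, 5.43 ± 0.20 in the MEF2C and ICN line without, 6.15 ± 0.04 on OP9-DL1, 6.53 ± 0.10 in medium and 6.78 ± 0.07 on OP9-GFP, all with dox, and 7.16 ± 0.20 in the MEF2C and ICN line with dox (SD, n = 3 each). Neighbouring ranges overlapped among the cultures without dox and between 5.19 and 5.43. RAG2 was lowest in the ICN line, at 2.52 without dox and 2.68 with, and its other 8 conditions averaged 4.49 to 5.78. LIG4 averaged 8.17 to 8.85 in 9 conditions and 9.93 in medium with MEF2C induced. Over the 30 arrays RAG1 correlated with RAG2 at r = 0.62 and with LIG4 at 0.33, as a description of arrays that share lines and conditions. By the same measure over 11330 genes, the genes most like RAG1 were AFF1 (0.92), CEP70 (0.86) and PLXNC1 (0.84).

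The other probe sets of the members showed how far a reading rested on its probes. The second LIG4 probe set, 206235_at, passed with MEF2C induced on OP9-DL1 (0.45), on OP9-GFP (0.57) and in medium (1.00). The second RAG1 probe set, 1554994_at, was dim at 2.74 to 4.32 and passed on OP9-GFP alone (0.59), with 0.32 on OP9-DL1, 0.21 in medium, -0.12 with MEF2C and ICN and 0.05 with ICN. PRKDC 210543_s_at passed with MEF2C and ICN (0.22) and XRCC5 208643_s_at with ICN (-0.20), where the brighter probe sets were uncalled. XRCC5 232633_at read 2.91 to 6.76 with replicate SDs of up to 1.62, so its -1.32 with MEF2C and ICN and -0.93 with ICN did not pass. The brightest probe sets of XRCC4 and DCLRE1C end in _x_at, the maker's mark for probes that may bind other transcripts.

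**Figure D4:**
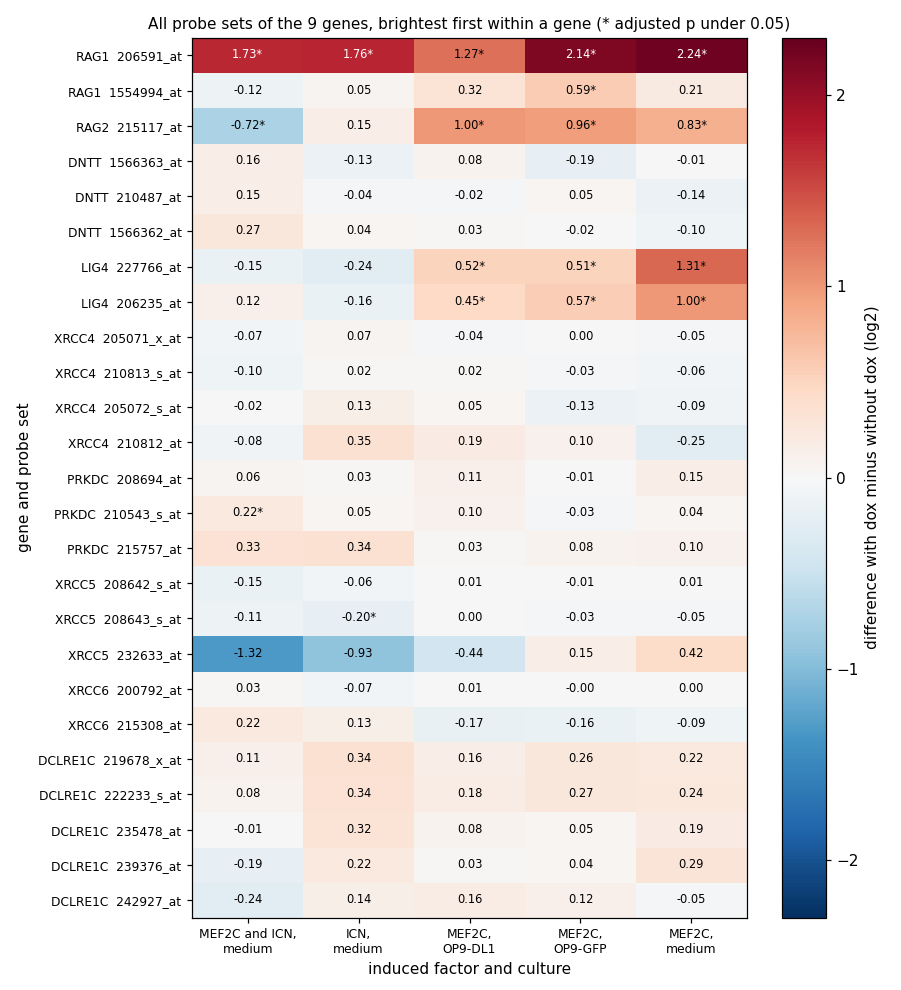
Difference with dox minus without dox (log2, colour and printed value) for all 25 probe sets of the 9 genes (rows) in 5 inductions (columns), with an asterisk where the adjusted p was under 0.05. The top row, the brighter RAG1 probe set, runs from 1.27 to 2.24, and both LIG4 probe sets carry asterisks in the MEF2C columns only.

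Genes that work with the members were examined over the 3 cultures of the MEF2C line. Of 13 measured accessory end-joining genes, 1 was higher and 0 lower, with a median of 0.06: APLF, a scaffold that holds Ku and XRCC4, at 0.44 (adjusted p = 0.0058). Of 15 break-sensing genes, 1 was higher and 0 lower, with a median of -0.01: RNF8, a ubiquitin ligase at breaks, at 0.18 (adjusted p = 0.025). Of 9 RAG cofactor and turnover genes none passed in either direction (limma), with 2 under an unadjusted p of 0.05. Of 5 neighbours of the RAG locus, 0 were higher and 1 lower, PRR5L, at -0.27 (adjusted p = 0.019), while TRAF6, next to RAG1, was at 0.20 (adjusted p = 0.098). These counts stand beside the 3.4% and 3.79% of all genes.

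Of 21 measured regulators of RAG transcription, 7 were higher and 2 lower, against 3.4% and 3.79% of all genes, with a median of 0.01. The higher ones with the largest differences were KLF2, a quiescence factor (0.81, adjusted p = 0.0087), IKZF1, the zinc-finger factor Ikaros (0.75, adjusted p = 4.3e-07), SATB1, a chromatin organizer of thymocytes (0.70, adjusted p = 1.3e-05), and GATA3, a T-lineage factor (0.57, adjusted p = 1.9e-06). The lower ones were LEF1, the effector of Wnt signalling (-0.31, adjusted p = 0.0067), and IKZF3, or Aiolos (-0.21, adjusted p = 0.0051). With ICN induced alone, where RAG1 was also higher, IKZF1 (-0.42), GATA3 (-0.51), SATB1 (-0.28) and IKZF3 (-0.32) were lower, LEF1 was higher (0.24) and KLF2 was uncalled. With MEF2C and ICN together IKZF1 (0.46) and LEF1 (0.46) were higher and GATA3 (-0.20) and IKZF3 (-0.37) lower, and SATB1 and KLF2 were uncalled. Their part in the RAG1 and RAG2 differences was not tested.

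**Figure D5:**
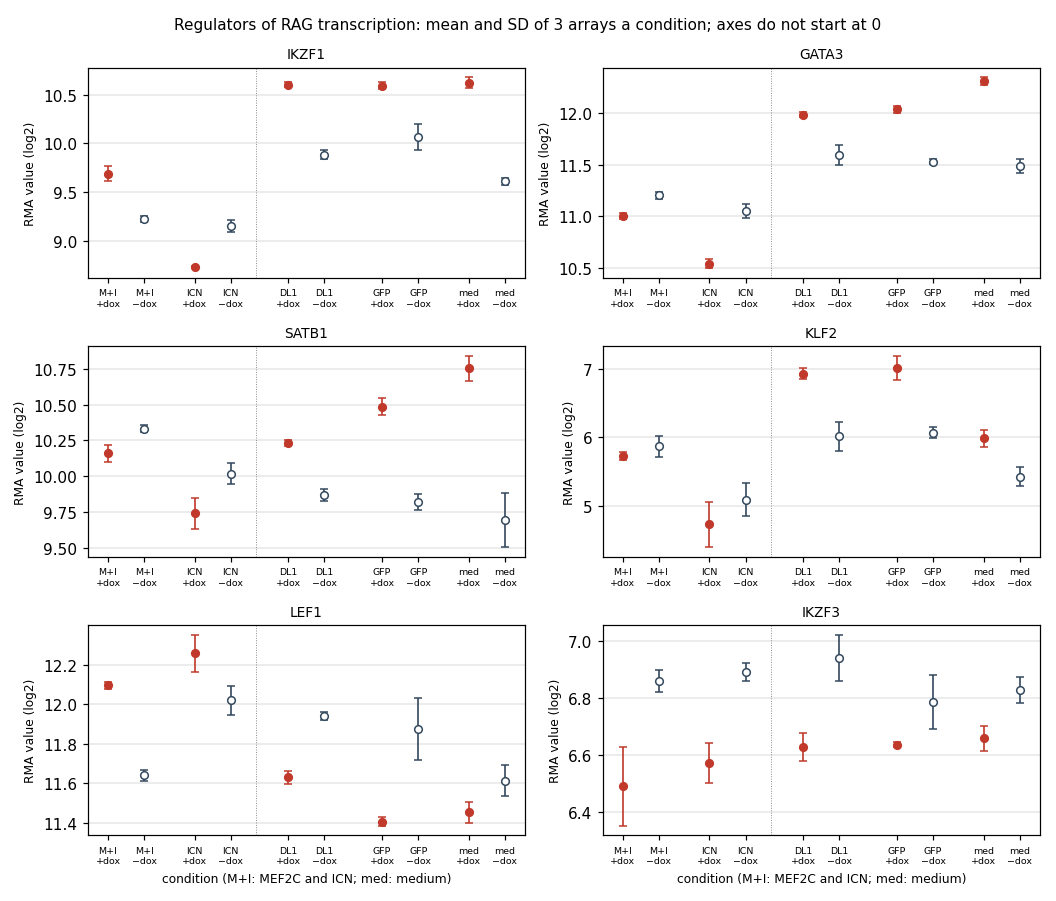
RMA values (log2) of 6 regulators in each condition, as the mean and SD of 3 arrays, filled with dox and open without. IKZF1 averages 10.59 to 10.62 with dox and 9.61 to 10.06 without in the MEF2C line, but 8.73 with dox and 9.16 without in the ICN line.

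Other genes moved in the same arrays. With MEF2C induced over the 3 cultures, 6 of 9 T-cell markers, 3 of 7 progenitor markers, 4 of 14 stromal markers and 1 of 6 myeloid markers were lower. None of these lists had a higher member. The lower progenitor markers were LYL1 (-0.56), HHEX (-0.28) and MEF2C (-1.06), the induced gene itself, read by 209199_s_at. The mean of the T-cell markers per array was 7.52 to 7.63 with dox in medium, against 7.93 to 8.04 without. With dox in medium, where no stroma was present, 3 of 14 stromal markers were also lower, against 3.58% of all genes. Their mean per array there was 5.27 to 5.28, against 5.51 to 5.62 without dox. The arrays in medium read LOUCY cells alone, so no stromal cells were there to be lost. In these bulk samples, fewer cells that express a marker and less RNA per cell cannot be told apart. Of 8 measured B-cell markers and 21 proliferation genes none passed in either direction over the 3 cultures (limma), with 0 and 2 under an unadjusted p of 0.05. Of 18 p53 targets, 1 was higher, TP53INP1 (1.79, adjusted p = 2.1e-06), and 1 lower, GADD45A (-0.34, adjusted p = 0.033). With ICN induced, 6 of 9 T-cell markers were higher, at 8.89 to 9.05 with dox against 8.41 to 8.45 without, and 7 of 21 proliferation genes were higher. In the same comparison 4 of 7 progenitor markers were lower, MEF2C by 209199_s_at among them. There 3 of 8 B-cell markers were lower and 1 higher, and 5 of 18 p53 targets were lower and 2 higher. With MEF2C and ICN, 1 T-cell marker was higher and 1 lower, and 9 of 18 p53 target genes were higher and 3 lower. Without dox, 12 of 18 p53 targets were higher and 2 lower in the MEF2C and ICN line than in the MEF2C line, and 16 were higher and 2 lower in the ICN line. Beside these counts, the shares of all genes higher and lower were 3.4% and 3.79% with MEF2C over the 3 cultures. With ICN they were 6.44% and 9.42%, and with MEF2C and ICN 5.84% and 10.9%. Without dox they were 12% and 11.9% for the MEF2C and ICN line and 12.9% and 12.3% for the ICN line. The part of these genes in the results for RAG1, RAG2 and LIG4 was not tested.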

How the data were processed

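The authors hybridised RNA to Affymetrix HG-U133 Plus 2.0 arrays and deposited 1 table of log2 values, normalized over all 30 arrays by RMA (affy 1.64.0, R 3.6.3 per the submitters' processing notes). RMA corrects background, matches distributions and pools probes, so low levels are shrunk and real shifts in total RNA are removed. No raw intensities were used here, and array data give no read depth: the number of arrays limits the precision. Of 54675 probe sets, 62 controls were left out. The platform annotation gave 41097 probe sets 1 symbol and 1801 several, which were not named. Groups came from the sample labels.

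MEF2C induction over 3 cultures was tested on 9 against 9 arrays without covariates, as in the study's methods, and the other 15 comparisons came from 1 model of 10 conditions over 30 arrays (limma 3.58.1, R 4.3.3, empirical Bayes, Benjamini-Hochberg over 54613 probe sets, adjusted p under 0.05, two-sided). The fit was tested on simulated data. All 9 members are named. Of every other list except the cell type markers, up to 4 genes per direction with the largest differences among those passing over the 3 cultures are named. Other genes, the proliferation and p53 lists among them, were named after their values were seen. The members and lists were chosen with earlier results of these data known. Shares of all genes use each gene's brightest probe set. Promoters and coordinates are from RefSeq on GRCh38.p14, where 7 of 9 members had a window. Alternatives covered the normalization, variance prior, dim probe sets, covariates, the study's criteria, probe set averaging and leaving out arrays.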

Additional observations from a re-analysis of the deposited data

Results flagged for a closer look

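Of 36 differences of effects between cultures or lines (9 genes in 4 comparisons), 4 passed (limma, Benjamini-Hochberg over all probe sets). The shares of all genes higher and lower were 0.0556% and 0.0759% for OP9-DL1 minus OP9-GFP and 0.101% and 0.389% for OP9-GFP minus medium. They were 4.06% and 6.08% for MEF2C and ICN minus ICN, and 2.94% and 7.53% for MEF2C and ICN minus MEF2C in medium. The LIG4 response to MEF2C was smaller on OP9-GFP than in medium, at -0.80 (adjusted p = 0.00066). The LIG4 response in the MEF2C and ICN line differed from that of the MEF2C line in medium by -1.47 (adjusted p = 9e-10). The RAG2 response in the MEF2C and ICN line differed from that in the ICN line, where RAG2 is dim and a change would be shrunk, by -0.88 (adjusted p = 0.0044) and from that of the MEF2C line in medium by -1.55 (adjusted p = 2.8e-06). The 3 comparisons that involve lines with ICN cannot separate the line from any batch of its arrays. Of 18 checks for a single array far from the others, over the 9 arrays with dox and the 9 without, 0 stood out. These checks pooled the 3 cultures, so an array far from its own culture could be missed. With dox, for example, the LIG4 SD was 0.56 pooled and 0.05 to 0.07 within a culture. The arrays of the lines with ICN were not covered.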

How the results depend on the processing

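Over all alternatives no member changed direction while called: 2329 values of single genes kept their side of the threshold, 35 newly passed and 16 no longer did. The count of members that passed moved by over 1.5 times in these cases. Leaving out dim probe sets gave 3 for ICN, 4 and 2 for OP9-GFP against medium without and with dox, 1 for the difference of MEF2C effects between OP9-DL1 and OP9-GFP, 0 for MEF2C and ICN minus ICN, and 1 for MEF2C and ICN minus MEF2C. That setting dropped means under 5, and with them RAG2 (mean 4.60) and DNTT (mean 3.79). RAG2, which had passed in the last 2 comparisons, was not fitted there. Quantile normalization gave 2 for OP9-GFP against medium without dox. A trended and robust variance prior gave 2 for ICN, 2 and 2 for OP9-GFP against medium, and 1 for OP9-DL1 minus OP9-GFP. The replicate number as a block gave 2 for ICN, where LIG4 passed (-0.24, adjusted p = 0.026), and changed no other call. The arrays share only a number: deviations of same-numbered arrays correlated at -0.09 to 0.19 and those of different numbers at -0.26 to 0.25. The study's criteria (log2 difference over 0.6, p under 0.05, q under 0.1) gave 0 for OP9-GFP against medium without dox, 1 for OP9-DL1 minus OP9-GFP and 1 for the MEF2C and ICN line; LIG4 also no longer passed with MEF2C on OP9-DL1 (0.52) and OP9-GFP (0.51), which left 2 members there. Averaging a gene's probe sets gave 2 for ICN, 2 and 3 for OP9-GFP against medium and 2 for MEF2C and ICN minus ICN. Fitting only the groups compared gave 0 for OP9-GFP against medium without dox. Leaving out arrays gave 2 to 3 over the 3 cultures, 1 to 2 for ICN, 0 to 1 for OP9-DL1 against OP9-GFP with dox, 1 to 3 and 1 to 2 for OP9-GFP against medium without and with dox, and 0 to 1 for OP9-DL1 minus OP9-GFP. Removing single arrays from the 9 against 9 comparison was added after seeing the data. Apart from settings that fit fewer genes or arrays, the cause was not tested. All genes that passed over the 3 cultures numbered 1423, and 284 to 3362 under the alternatives. Probe sets near the dim end, DNTT and RAG2 in the ICN line among them, limit what a small difference can show.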
